A study of Mus musculus with 6 samples.

Results

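The immunity-related GTPases (IRGs) described here are Irgm1, Irgm2, Igtp, Iigp1, Tgtp1 and Tgtp2, found in the count table by matching its Ensembl mouse gene identifiers to these symbols. They are 6 of the 26519 genes in the table. The samples were dendritic cells, which take up antigen and show it to T cells, recovered from MC38 tumours 10 days after inoculation. MC38 is a mouse colon carcinoma line. There were 3 samples from MAVS knockout (MAVS KO) hosts bearing MC38 tumours and 3 from WT hosts bearing the same tumours, and the series asks what host MAVS does for antitumour immunity. MAVS is the adaptor on mitochondria through which RIG-I and MDA5, sensors of viral RNA in the cytosol, switch on type I interferon genes. Strain, age and sex of the mice, how the dendritic cells were isolated, and which part of Mavs was deleted were not stated in the labels or series text.

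IRGs are GTP-binding proteins that interferon, above all interferon-gamma, makes mouse cells produce. The effector IRGs carry the usual lysine in their first GTP-binding loop (a GKS motif) and coat and disrupt the vacuoles in which Toxoplasma gondii and some bacteria live. The regulatory IRGs carry a methionine there (GMS) and sit on the cell's own membranes, where they hold the effectors in their inactive form. Irgm1, Irgm2 and Igtp are regulators. Iigp1, Tgtp1 and Tgtp2 are effectors.

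The loop that divides the family could be read from the coding bases. It was found in the longest open reading frame of each member's GENCODE M21 transcripts, and the codon that makes a regulator or an effector is in capitals, with ATG for methionine and AAG for lysine.
Irgm1: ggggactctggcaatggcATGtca
Irgm2: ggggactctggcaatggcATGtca
Igtp: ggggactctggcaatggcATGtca
Tgtp1: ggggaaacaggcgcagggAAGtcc
Tgtp2: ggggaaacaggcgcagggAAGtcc
These stretches are bases 247 to 270 of the reading frame in Irgm1 and Irgm2, 271 to 294 in Igtp, and 187 to 210 in Tgtp1 and Tgtp2. All 24 bases were the same in the 3 regulators. Iigp1 also had AAG at this codon, in bases 226 to 249.

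Over the whole reading frame the regulators were alike at 69.4% to 74.5% of aligned bases, and a regulator and an effector at 61.8% to 65.2%. Iigp1 matched Tgtp1 at 65.7% and Tgtp2 at 65.9%. Tgtp1 and Tgtp2 were the same at 1244 of 1248 bases (99.7%). Of the 100-base stretches in Tgtp1 transcripts, 70.3% were also in Tgtp2, and 76.8% of those in Tgtp2 were also in Tgtp1. The values of these 2 genes taken singly are therefore uncertain, and their sum is given too.

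Promoter windows from RefSeq (GRCm38.p6), from 250 bases before to 50 bases after each gene start, were given for 5 of the 6 members. They were searched on both strands for the letters TTCNNNGAA, the gamma-activated sequence (GAS) of interferon-gamma target genes, and for GAAA, any 2 bases and GAAA, the interferon-stimulated response element (ISRE) to which interferon regulatory factors bind. The GAS letters were in 8.3% of 32851 mouse promoter windows of the same length and the ISRE letters in 3.44%. Of the 5 members, 4 had both, and both were present in 149 of the 32851 windows (0.454%). In these 4 the ISRE followed the GAS after 2 bases, shown with the element letters in capitals on the strand of the gene.
Igtp, chr11:58199511-58199531, plus strand: TTCTAGGAActGAAACTGAAA
Irgm2, chr11:58214902-58214922, plus strand: TTCCAGGAActGAAACTGAAA
Tgtp1, chr11:48992314-48992334, minus strand: TTCCAGGAAtcGAAACTGAAA
Tgtp2, chr11:49064273-49064293, minus strand: TTCCAGGAAtcGAAACCGAAA
The pair of elements began 45 bases before the gene start in Igtp, 75 in Irgm2, 88 in Tgtp1 and 81 in Tgtp2. This arrangement was in 5 of the 32851 windows, those of the 4 members and of Gm12185. The spacing was read from these same windows, and related genes share ancestry, so the count describes the family and tests nothing. A match of letters is not a measured binding site.

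The windows of a regulator with the paired elements, an effector with them and a regulator without the GAS letters are given whole, so that the elements can be seen in place.
Igtp, chr11:58199306-58199605, plus strand: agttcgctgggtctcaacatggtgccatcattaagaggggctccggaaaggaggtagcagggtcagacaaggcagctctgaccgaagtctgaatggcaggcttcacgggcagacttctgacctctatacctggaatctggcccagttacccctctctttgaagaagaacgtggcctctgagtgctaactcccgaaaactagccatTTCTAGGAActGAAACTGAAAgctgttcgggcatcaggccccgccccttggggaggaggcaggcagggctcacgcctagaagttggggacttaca
Tgtp2, chr11:49064163-49064462, minus strand: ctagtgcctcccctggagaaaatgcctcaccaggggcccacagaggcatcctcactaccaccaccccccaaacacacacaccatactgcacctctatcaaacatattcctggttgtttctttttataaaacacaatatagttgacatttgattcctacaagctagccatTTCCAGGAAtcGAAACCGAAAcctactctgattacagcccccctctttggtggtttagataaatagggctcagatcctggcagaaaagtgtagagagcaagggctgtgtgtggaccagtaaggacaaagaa
Irgm1, chr11:48871371-48871670, minus strand: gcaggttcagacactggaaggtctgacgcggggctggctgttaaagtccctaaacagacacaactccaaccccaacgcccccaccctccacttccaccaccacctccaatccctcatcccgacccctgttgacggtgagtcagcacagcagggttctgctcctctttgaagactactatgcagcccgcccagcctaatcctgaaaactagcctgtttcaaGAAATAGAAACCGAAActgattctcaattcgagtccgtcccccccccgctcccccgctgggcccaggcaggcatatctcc
The Irgm1 window held no GAS letters and 2 overlapping ISRE matches, which began 30 and 24 bases before the gene start.

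**Figure D1:**
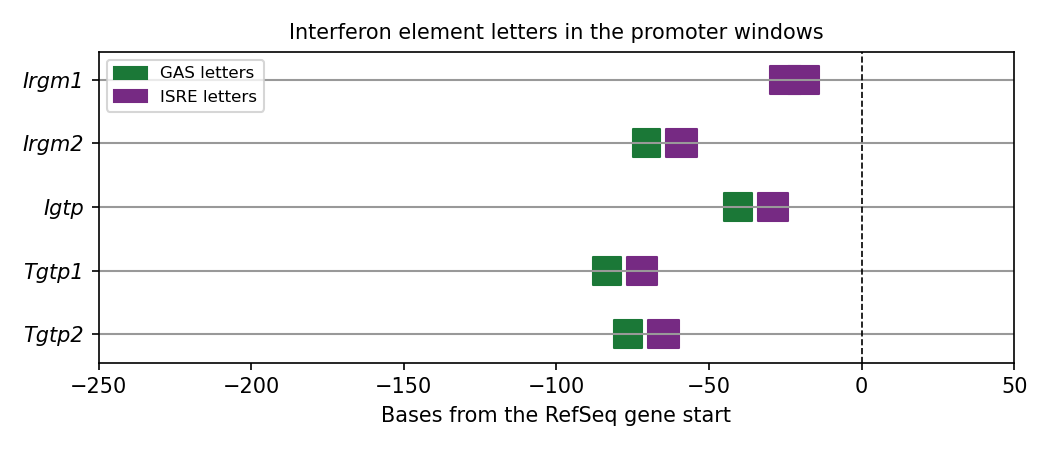
Positions of the GAS and ISRE letters in the promoter windows of 5 IRGs, in bases from the RefSeq gene start (0), each drawn on the strand of its gene. In Irgm2, Igtp, Tgtp1 and Tgtp2 a GAS match is followed after 2 bases by an ISRE match, and in Irgm1 there are 2 overlapping ISRE matches and no GAS match.

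In mm10 coordinates, 5 members lie on chromosome 11 and Iigp1 lies on chromosome 18 (60376027 to 60392634, plus strand). Irgm1 (48861968 to 48871683), Tgtp1 (48985327 to 48994172) and Tgtp2 (49057194 to 49064206) are on the minus strand of chromosome 11 in one cluster. Igtp (58199556 to 58207591) and Irgm2 (58199618 to 58222782) lie on its plus strand in another, and their exons share 162 bases, which is 8.01% of the exon bases of Igtp and 4.39% of those of Irgm2. Tgtp1 shares 223 exon bases (6.96%) with Gm12185, a further IRG gene on the same strand. The GENCODE bounds of Irgm1, Irgm2 and Tgtp1 reach further upstream than the RefSeq starts used for the promoter windows, and these 3 windows lie whole inside the GENCODE genes. Reads from shared bases cannot be told apart between such genes.

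Library totals were 14466640 to 18862534 counts in MAVS KO and 17357031 to 20851733 in WT. The labels do not say that the samples came from separate mice, and every p-value here speaks only of how these samples varied, which may be technical. Mavs itself averaged 10.4 ± 2.09 CPM in MAVS KO and 37.8 ± 3.32 CPM in WT (SD, n = 3 each), which matches the labels; CPM is the count scaled to the size of the library with TMM factors. Of the 7 conventional dendritic cell markers, the antigen presentation genes Cd74 and H2-Ab1 and the integrin gene Itgax were abundant in both groups; Itgax averaged 292.7 ± 22.3 CPM in MAVS KO and 245.7 ± 27.4 CPM in WT (SD, n = 3 each). The growth factor receptor gene Flt3 fell to 12.4 ± 2.64 CPM in MAVS KO, against 49.9 ± 20.7 CPM in WT, and the transcription factor gene Zbtb46 to 8.75 ± 1.93 CPM in MAVS KO, against 20.1 ± 6.51 CPM in WT (SD, n = 3 each; edgeR adjusted p = 0.0110 and 0.0402). In the same list, Dpp4 averaged 25.5 ± 9.11 CPM in MAVS KO and 51.0 ± 9.90 CPM in WT (SD, n = 3 each, edgeR adjusted p = 0.0597). Ciita had a log2 fold change of −0.24 (edgeR adjusted p = 0.504), and the list's median was −0.24. Macrophage genes were abundant too, with Lyz2 at 22105 ± 4494 CPM in MAVS KO and 21636 ± 2363 CPM in WT (SD, n = 3 each). None of the 8 macrophage markers was called by edgeR, and 5 had an unadjusted p below 0.05, with C1qa, C1qb, C1qc and Mrc1 at positive values and Apoe at a negative one. In such bulk samples, fewer cells of a type and less RNA per cell cannot be told apart.

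All 6 IRGs were measured at a higher mean in MAVS KO dendritic cells than in WT dendritic cells, and 1 of them, the effector Iigp1, passed the test at an adjusted p below 0.05. Across all 12580 genes tested, 2.81% passed in either direction, 1.76% passed as higher in MAVS KO and 1.05% as lower. These were 222 genes higher and 132 lower; scaled by library size alone, 102 were higher and 341 lower. The log2 fold changes of the 6, MAVS KO over WT, ran from 0.55 to 1.35 with a median of 0.66, where the median of all tested genes was −0.0022 and 6.41% of tested genes lay above 0.66. For 5 of the 6, every MAVS KO library lay above every WT library, as it did for 11.2% of tested genes. All 6 had an unadjusted p below 0.05 in that direction, as had 8.46% of tested genes. The other 5 members failed the correction over all genes; the DESeq2 Wald test, which called 772 genes, called 3 of the 6 (Iigp1, Igtp and Irgm1). The members were fitted in the same 6 libraries and vary together, so these counts are not 6 independent results.

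**Figure D2:**
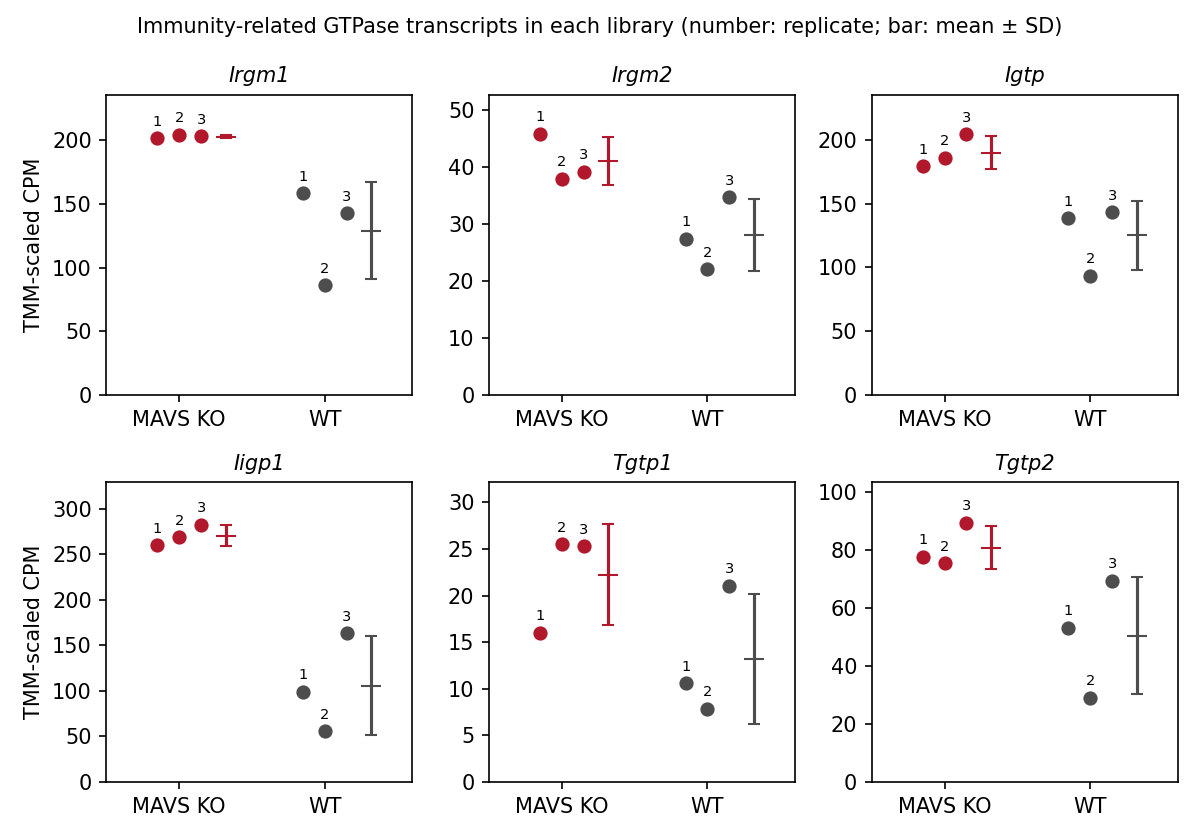
TMM-scaled CPM of each IRG in every library, MAVS KO on the left of WT in each panel, with points for libraries and a bar for the group mean. WT replicate 2 is the lowest library in all 6 panels, and the groups overlap in the Tgtp1 panel.

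Of the regulators, Irgm1 is the IRG known for holding the others in check and for its part in autophagy and mitochondrial upkeep. It stood at 201.6, 204.5 and 203.1 CPM in the MAVS KO libraries and at 158.5, 86.0 and 142.8 CPM in the WT libraries. The knockout libraries were nearly level, the WT libraries were spread, and the groups did not overlap. The log2 fold change was 0.65 with an SE of 0.19 and a 95% interval of 0.23 to 1.07 (edgeR quasi-likelihood test, adjusted p = 0.108).

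Igtp, which resides on the endoplasmic reticulum and lipid droplets, had 179.6, 186.2 and 204.6 CPM in MAVS KO and 138.5, 93.7 and 143.2 CPM in WT. Its highest WT library was below its lowest MAVS KO library. The log2 fold change was 0.60, SE 0.16, with an interval of 0.26 to 0.95 and an adjusted p of 0.0740 by edgeR, and of the 5 members that missed the threshold it came closest.

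Irgm2, a regulator found at the Golgi apparatus, had 45.8, 38.0 and 39.2 CPM in MAVS KO and 27.4, 22.1 and 34.7 CPM in WT. The groups were separate but the gap between them was small. The log2 fold change was 0.55, SE 0.18, interval 0.15 to 0.94, with an edgeR adjusted p of 0.154. Since Igtp and Irgm2 share exon bases, their counts were also summed, which gave 231.1 ± 11.1 CPM in MAVS KO and 153.2 ± 33.0 CPM in WT (SD, n = 3 each) and a log2 fold change of 0.59 with an edgeR adjusted p of 0.0708.

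Among the effectors, Iigp1, which loads onto the Toxoplasma vacuole, rose in MAVS KO. Its libraries stood at 260.1, 268.7 and 282.6 CPM in MAVS KO and at 99.0, 55.5 and 163.1 CPM in WT. Behind these were 4631, 4006 and 3859 counts in MAVS KO and 2009, 1039 and 3541 counts in WT. The MAVS KO libraries lay close together, and each lay well above the highest WT library. The mean was 270.5 ± 11.4 CPM in MAVS KO and 105.9 ± 54.2 CPM in WT (SD, n = 3 each), a 2.55-fold difference with a 95% interval of 1.63 to 4.01 (log2 1.35, SE 0.29, edgeR adjusted p = 0.0390). The call was lost when any 1 MAVS KO library or WT replicate 1 was left out, with log2 fold changes of 1.38, 1.36 and 1.32 without MAVS KO replicates 1, 2 and 3 and 1.29 without WT replicate 1, at edgeR adjusted p from 0.0966 to 0.154. It held without WT replicate 2 (1.04, adjusted p = 0.0411) and without WT replicate 3 (1.81, adjusted p = 0.00712).

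Tgtp2, a GKS effector that is also recruited to vacuoles, had 77.7, 75.5 and 89.5 CPM in MAVS KO and 53.2, 29.0 and 69.5 CPM in WT. Its groups did not overlap, though WT replicate 3 came near the lowest MAVS KO library. The log2 fold change was 0.68, SE 0.25, interval 0.12 to 1.23 (edgeR adjusted p = 0.212).

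Tgtp1, its near copy, had 16.0, 25.5 and 25.3 CPM in MAVS KO and 10.6, 7.85 and 21.1 CPM in WT. Here WT replicate 3 was above MAVS KO replicate 1, so the groups overlapped. The log2 fold change was 0.75, SE 0.34, interval 0.01 to 1.49 (edgeR adjusted p = 0.308). Summed, the pair averaged 103.2 ± 10.7 CPM in MAVS KO and 63.8 ± 26.8 CPM in WT (SD, n = 3 each), with a log2 fold change of 0.69, SE 0.26 and an edgeR adjusted p of 0.210.

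Per kilobase of exon, the level of Igtp was the highest of the 6, at 94.0 ± 6.42 CPM per kilobase in MAVS KO and 61.9 ± 13.5 in WT (SD, n = 3 each, here and for the levels that follow). In MAVS KO the order then ran through Iigp1 (46.5 ± 1.95), Irgm1 (35.0 ± 0.244), Tgtp2 (27.5 ± 2.56), Irgm2 (11.1 ± 1.14) and Tgtp1 (6.94 ± 1.69). In WT it ran through Irgm1 (22.2 ± 6.57), Iigp1 (18.2 ± 9.30), Tgtp2 (17.2 ± 6.92), Irgm2 (7.60 ± 1.72) and Tgtp1 (4.11 ± 2.17). In MAVS KO every neighbour in this order stood apart by more than the sum of the SDs, while in WT Irgm1, Iigp1 and Tgtp2 did not, nor did Irgm2 and Tgtp1. The levels of Tgtp1 and Tgtp2 carry the uncertainty of shared reads. Length here was that of all annotated exons of a gene merged, at 2022 bases for Igtp, 5823 for Iigp1 and 5810 for Irgm1. The order depends on these lengths. In mean CPM, Iigp1 (270.5) and Irgm1 (203.1) lay above Igtp (190.1) in MAVS KO. In WT, Irgm1 (129.1) lay above Igtp (125.1) and Iigp1 (105.9) below it.

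The place of Iigp1 among the 6 was also described within each library. The ratio of Iigp1 to Irgm1 CPM was 1.29, 1.31 and 1.39 in MAVS KO and 0.625, 0.645 and 1.14 in WT. The ratio of Iigp1 to Igtp averaged 1.42 ± 0.0373 in MAVS KO and 0.815 ± 0.287 in WT (SD, n = 3 each). Both comparisons had p = 0.10 by a two-sided exact permutation test, the smallest that 3 against 3 allows, and 0.20 after adjustment over the 4 ratios compared. The test could therefore not reach 0.05 and decides nothing here. The ratios use the same counts as the fold changes above, so they restate the larger fold change of Iigp1 and add no separate evidence. The other ratios were nearer to each other: Igtp to Irgm2 averaged 4.68 ± 0.677 in MAVS KO and 4.48 ± 0.503 in WT (exact permutation p = 0.90), and Tgtp1 to Tgtp2 averaged 0.275 ± 0.0661 in MAVS KO and 0.257 ± 0.0532 in WT (exact permutation p = 0.70).

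The IRGs varied more among the WT libraries than among the MAVS KO libraries. Their summed level was 780.9, 798.2 and 844.4 CPM in MAVS KO and 487.3, 294.1 and 574.3 CPM in WT. The coefficient of variation ran from 0.698% (Irgm1) to 24.3% (Tgtp1) in MAVS KO and from 21.8% (Igtp) to 52.9% (Tgtp1) in WT, where the medians over 8988 tested genes at 5 CPM or more were 11.4% in MAVS KO and 13.7% in WT. WT replicate 2 was lowest for every member, at 0.423 (Iigp1) to 0.710 (Irgm2) of the mean of the other 2 WT libraries. The median of that ratio over the 8988 genes was 1.01, and 5.83% of them had a ratio below 0.710. Without WT replicate 2 the median log2 fold change of the 6 was 0.43, against 0.66 with it.

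Other IRG genes of the mouse were described as a list of 12, of which 11 were tested. None was called by edgeR or limma, while DESeq2 called 3 as higher. Of the 11, 10 had a positive log2 fold change and 5 had an unadjusted p below 0.05, with a median log2 fold change of 0.63. In 5 every MAVS KO library lay above every WT library. Of all tested genes, 49.63% had a positive log2 fold change and 16.0% an unadjusted edgeR p below 0.05. In 11.2% of tested genes every MAVS KO library lay above every WT library. Ifi47, an interferon-inducible IRG, had 161.0, 179.9 and 179.7 CPM in MAVS KO and 131.6, 75.4 and 130.2 CPM in WT (log2 0.63, edgeR adjusted p = 0.124). Gm12250 had 40.2, 38.5 and 38.5 CPM in MAVS KO and 24.3, 20.4 and 32.9 CPM in WT (0.59, edgeR adjusted p = 0.122). The 3 gene models beside Iigp1 on chromosome 18 had log2 fold changes of 1.02 (Gm4951, edgeR adjusted p = 0.184), 1.29 (F830016B08Rik, 0.299) and 0.86 (Gm4841, 0.678). Gm5431 had 0.73 (edgeR adjusted p = 0.254), Gm12185 0.78 (0.520) and Irgc1 0.54 (0.553). When 1 library was left out, Gm4841 ran from 0.31 (without WT replicate 2) to 1.43 (without WT replicate 1), Gm12185 from 0.12 (without MAVS KO replicate 3) to 1.27 (without WT replicate 3), and Irgc1 from 0.28 (without WT replicate 1) to 0.99 (without WT replicate 3). The smallest differences were those of 9930111J21Rik1 (0.15, but −0.015 with library size alone), Irgq (0.04, but −0.13 with library size alone) and 9930111J21Rik2 (−0.01). Irgq is an IRG-related gene that interferon is not known to induce. Gm12187 had 1, 0 and 0 counts in MAVS KO and 0, 2 and 1 in WT and was not tested.

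Genes beside the IRG clusters and not on the IRG lists were set against them. Whether any of these is related to the IRGs was not checked. Within 500 kilobases of the cluster from Irgm1 to Ifi47, 8 IRG genes had a median log2 fold change of 0.66 and 7 other tested genes 0.23. Around Gm12250, Igtp and Irgm2 the medians were 0.59 for 3 IRG genes and −0.10 for 10 others. Around Iigp1 they were 1.16 for 4 IRG genes and 0.31 for 11 others, and those 11 ran from −0.12 to 1.51. In each of the 3 neighbourhoods 0 of the other genes were called by edgeR, DESeq2 or limma, where edgeR called 2.81% of tested genes. With so few genes, 0 calls cannot be told apart from that share. An unadjusted edgeR p below 0.05 was found for 16.0% of tested genes. Of the other genes, 0 had it around Gm12250 and around Iigp1, and 1 had it around the cluster from Irgm1 to Ifi47. This was Olfr56 (log2 1.41), whose annotated span holds Tgtp1 and Tgtp2 and whose exons share 111 bases with Ifi47. Its exons share 0 bases with those of Tgtp1 and of Tgtp2. Whether the Olfr56 count holds reads from the IRGs was not tested, and the median of 0.23 includes this gene. No member lies on chromosome 2, where Mavs is.

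The guanylate-binding proteins (GBPs), larger interferon-induced GTPases that join the IRGs on vacuoles, had 3 of 11 members called as higher in MAVS KO and none as lower. Their median log2 fold change was 0.86, 10 of 11 were positive and in 7 every MAVS KO library lay above every WT library. Among all tested genes 1.76% were called as higher, and in 11.2% every MAVS KO library lay above every WT library. These shares also apply to the lists that follow, as do 2.81% called and 16.0% at an unadjusted p below 0.05 in either direction. Gbp2 stood at 648.7, 756.5 and 738.0 CPM in MAVS KO and at 327.3, 196.4 and 400.8 CPM in WT (log2 1.21, SE 0.21, edgeR adjusted p = 0.0203). Gbp7 (0.63, edgeR adjusted p = 0.0282) and Gbp3 (0.69, 0.0438) also rose, and Gbp8 had 0.93 with an adjusted p of 0.0563. Gbp2b, the one with a negative value, had 2.25 to 5.50 CPM in MAVS KO and 3.10 to 16.3 CPM in WT (−1.71, edgeR adjusted p = 0.152). The GBP calls moved with single libraries. None was higher by the test when any 1 MAVS KO library or WT replicate 1 was left out, 2 were without WT replicate 2, and 6 were without WT replicate 3.

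**Figure D3:**
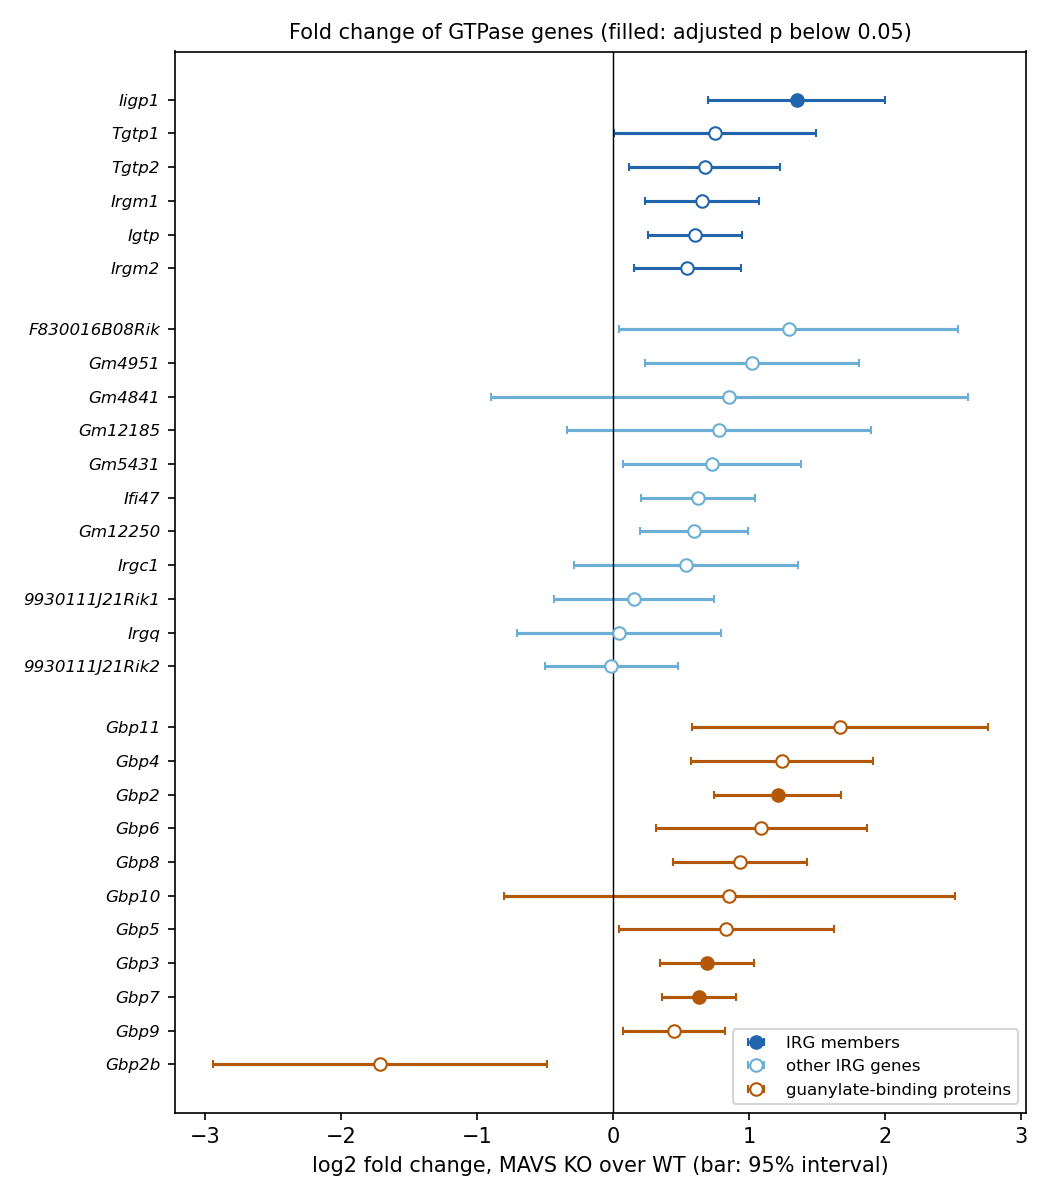
Log2 fold change, MAVS KO over WT, of the IRG members, the other IRG genes and the guanylate-binding proteins, with 95% intervals of the fit; filled points have an adjusted p below 0.05. Iigp1, Gbp2, Gbp3 and Gbp7 are filled, and Gbp2b is the gene furthest to the left.

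Interferon ligands were scarce. Of 6 listed, 3 were in the table and 1, Ifng, was tested. Ifng, the gene of interferon-gamma, had 18, 17 and 39 counts in MAVS KO and 51, 0 and 4 counts in WT (log2 0.88, SE 1.11, edgeR adjusted p = 0.785). Its log2 fold change ran from 0.26 (without MAVS KO replicate 3) to 3.995 (without WT replicate 1) when 1 library was left out, and it was 0.30 without WT replicate 2 and 0.39 without WT replicate 3. The 0 counts of WT replicate 2 allow up to 3 counts, or 0.160 CPM. WT replicate 2, the lowest library for the IRGs, was also the lowest for Ifng. In CPM, Ifng was highest in MAVS KO replicate 3 (2.86) and next in WT replicate 1 (2.51), and each IRG was lower in WT replicate 1 than in every MAVS KO library. The natural killer cell markers, genes of a main source of interferon-gamma, summed to 20.4 to 37.4 CPM in MAVS KO and 8.06 to 33.1 CPM in WT, lowest in WT replicate 2, and 0 of 6 tested were called by edgeR or had an unadjusted p below 0.05. The T cell markers summed to 12.5 to 26.7 CPM in MAVS KO and 15.5 to 19.8 CPM in WT. By edgeR, 0 of 8 tested were called, 1 had an unadjusted p below 0.05 and 6 had a positive log2 fold change. That 1 was Cd8a (log2 1.98, edgeR adjusted p = 0.251), at 1.40 to 3.22 CPM in MAVS KO and 0.0534 to 1.29 CPM in WT. Cd8b1 had 1.16, Cd4 −1.12 and Trac −0.73 (edgeR adjusted p = 0.432, 0.377 and 0.464). The part of these cells in the IRG levels was not tested.

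Of the 10 genes for interferon receptors and the JAK-STAT relay, 0 were called by edgeR or limma and 1 by DESeq2, 2 had an unadjusted p below 0.05 by edgeR, and the median log2 fold change was 0.11. Ifngr1, a chain of the interferon-gamma receptor, had −0.33 (edgeR adjusted p = 0.211), Ifngr2, the other chain, 0.25 (0.332), and the kinase gene Tyk2 −0.33 (0.361).

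Of 8 transcription factors of the interferon response, 1 was called, and the list's median log2 fold change was 0.31. Batf2, an interferon-gamma-induced partner of IRF1 in macrophages, rose to 72.3, 71.5 and 97.7 CPM in MAVS KO, against 44.8, 33.5 and 52.1 CPM in WT (0.89, SE 0.18, edgeR adjusted p = 0.0338). The call was lost with library size alone (0.72, adjusted p = 0.0550) and when any 1 library but WT replicate 3 was left out (0.72 to 0.97, adjusted p up to 0.151). Irf2 had 0.70 (edgeR adjusted p = 0.0953), Irf1, an activator of IRG and GBP genes, 0.47 (0.202) and Nlrc5, the activator of MHC class I genes, 0.42 (0.242).

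The 8 feedback inhibitors of interferon signalling had 0 calls by edgeR, 1 by DESeq2 and 1 by limma, 2 unadjusted p below 0.05 and a median of 0.07. Socs1, which blocks JAK kinases and is induced by interferon-gamma, had 67.0, 64.3 and 68.5 CPM in MAVS KO and 30.7, 18.2 and 45.1 CPM in WT. Its groups did not overlap, and its log2 fold change was 1.09, SE 0.26 (edgeR adjusted p = 0.0541). Socs3 had 0.42, and the phosphatase genes Ptpn2 and Ptpn6 had 0.20 and −0.20.

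The autophagy genes that load IRGs onto vacuoles had 1 of 12 called, with a median of 0.06. Gabarap, a ubiquitin-like protein of that conjugation system, rose to 490.1 ± 52.5 CPM in MAVS KO, against 338.3 ± 26.4 CPM in WT (SD, n = 3 each; log2 0.54, edgeR adjusted p = 0.0364). This call was lost with library size alone (0.37, adjusted p = 0.0970) and when any 1 of the 6 libraries was left out (0.46 to 0.62, adjusted p from 0.0571 to 0.158). Atg5, part of the enzyme complex that attaches such proteins to membranes, had 0.37 (edgeR adjusted p = 0.168), Gabarapl1 0.36 and Map1lc3a 0.34. Of 8 ubiquitin and adaptor genes of the coated vacuole, 0 were called by edgeR, DESeq2 or limma, 0 had an unadjusted p below 0.05 and the median was 0.08: Tax1bp1 had 0.17, Calcoco1 0.56, Rnf213 0.16 and Trim21 −0.18.

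**Figure D4:**
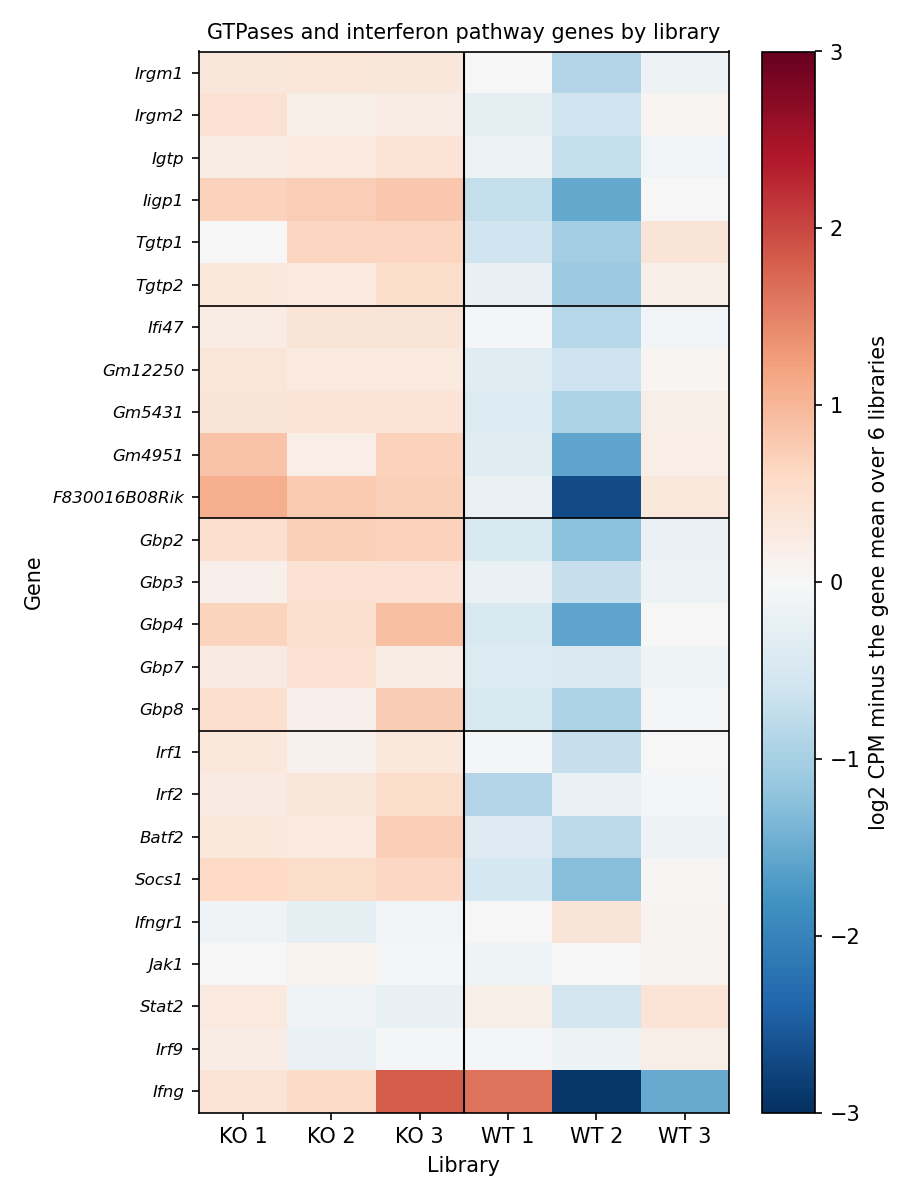
Log2 CPM of the IRGs and of genes of the interferon pathway in each library, after subtracting the gene's mean over the 6 libraries; MAVS KO libraries are the left 3 columns and WT libraries the right 3. WT replicate 2 is the lowest library for the 6 IRGs and the 5 GBPs drawn, while Ifngr1 and Jak1 are not low there.

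The genes whose profile over the 6 libraries was most like the mean profile of the IRGs were sought among 8982 other tested genes at 5 CPM or more, by the root mean square difference of centred log2 CPM. They were Gm5431, itself an IRG gene (0.0717), H2-T24, a non-classical MHC class I gene (0.101), Calhm6 (0.102), Slamf7, a surface receptor of leukocytes (0.114), and Ccdc126 (0.117). None of these 5 passed the test, at edgeR adjusted p of 0.254, 0.297, 0.106, 0.138 and 0.302. Slamf7 had 94.7, 104.4 and 93.1 CPM in MAVS KO and 51.9, 37.4 and 83.7 CPM in WT. Of the members, Tgtp2 was nearest to the family's mean profile (0.0952) and Iigp1 farthest from it (0.361). The closest pair was Irgm1 with Igtp (0.114), and the most unlike pair was Iigp1 with Irgm2 (0.541).

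Markers of other cell types also differed between the groups. Of the 6 monocyte markers, Chil3 rose to 12484, 3237 and 6437 CPM in MAVS KO, against 1670, 515.0 and 1850 CPM in WT (edgeR adjusted p = 0.0360), and the list's median log2 fold change was −0.05, with −1.09 for Vcan and −0.17 for Ccr2. The mature migratory dendritic cell list, with 3 of 5 tested genes called as higher, summed to 148.0 to 272.0 CPM in MAVS KO and 84.7 to 106.1 CPM in WT. The endothelial list, with 1 of 3 tested genes called (Flt1, higher), summed to 106.5 to 209.4 CPM in MAVS KO and 41.6 to 87.8 CPM in WT, and Cdh5, which defines that cell, had 0 counts in every MAVS KO library. The neutrophil list, with 1 of 4 tested genes called (Mmp8, higher), summed to 93.0 to 98.7 CPM in MAVS KO and 55.5 to 57.2 CPM in WT, and S100a9, which defines that cell, had 0 to 3 counts in every library. The B cell list, with 1 of 2 tested genes called (Ighm, lower), summed to 10.2 to 12.0 CPM in MAVS KO and 31.5 to 52.2 CPM in WT. Of the 6 type 2 conventional dendritic cell markers, Sirpa was called as higher and Cd209a as lower, and of the 7 type 1 markers 3 were called as lower. Xcr1, one of them, averaged 7.79 ± 1.75 CPM in MAVS KO and 35.1 ± 12.9 CPM in WT (SD, n = 3 each). The part of these cells in the IRG levels was not tested.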

How the data were processed

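Trizol was used to extract RNA, per the labels' protocols. The authors deposited raw counts per Ensembl gene, whole numbers that were not normalized. Per the submitters' processing notes, HISAT2, HTSeq, DESeq2 and the mm10 build were used; no versions or settings are listed there. The strand setting and the treatment of reads with several matches are unknown here. Symbols, positions and exon lengths came from GENCODE M21 (GRCm38), which matched 26356 identifiers of 26519 and left 163 unmatched.

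The 6 libraries entered 1 fit in edgeR 4.0.16, run under R 4.3.3. Genes were kept by filterByExpr with a minimum count of 10 and a minimum total of 15. The fit used TMM scaling, the quasi-likelihood F test without covariates, and Benjamini-Hochberg adjustment over the 12580 genes left, at a threshold of 0.05. All 6 members passed the filter. CPM was scaled with TMM factors, and the SE and 95% intervals come from the fit. Centred log2 CPM used a prior count of 2. The procedure was run on simulated counts. How often it recovers fold changes as small as those of most members is not reported here.

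The members, the gene lists and the tests were chosen with earlier results of these data known. Genes are named by a rule: the members, Mavs, the other tested IRG genes, up to 4 genes of each pathway list with the smallest p, and the 5 genes nearest in profile. Gm12187, Gbp2b, Gbp4, Jak1, Stat2, Irf9, the other GBPs drawn, Olfr56 and the cell type markers given are named outside this rule, with their values known. A gene that the rule picks is left out of the text.

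The alternatives changed the scaling (size factors of DESeq2 1.42.0, or library size alone), the filter (none, or a mean of 5 CPM), the test (the DESeq2 Wald test, voom with limma 3.58.1, robust dispersion), the design (a replicate block) or the libraries (each left out). Summing Igtp with Irgm2 was added after seeing the data. The intervals and the limit on a count of 0 cover counting error or the spread of these samples only.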

Additional observations from a re-analysis of the deposited data

How the results depend on the processing

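All 6 members kept a positive log2 fold change under every alternative run. Their median was 0.43 to 0.85 when 1 library was left out and 0.50 with library size alone, which moved the median of all genes to −0.17 (no filter moved it to −0.10). The number of genes called was 354; it was 924 without a filter and 772 with the DESeq2 Wald test, and 39, 64 and 36 without MAVS KO replicates 1, 2 and 3 and 193, 151 and 277 without WT replicates 1, 2 and 3. Library size alone gave 102 higher and 341 lower, against 222 and 132. The number of members called was 1; it was 6 without a filter, 3 with the Wald test (Iigp1, Igtp at 0.00946 and Irgm1 at 0.0179), 2 with the replicate block and 0 to 1 when 1 library was left out. Iigp1 was called in all 8 alternatives that kept every library (edgeR, limma or DESeq2 adjusted p up to 0.0479). The summed Tgtp pair passed without a filter (0.69, edgeR adjusted p = 1.22e-04) and ran from 0.41 to 1.03 when 1 library was left out. The GBPs called as higher numbered 3; they were 8 without a filter (1 lower), 6 with the Wald test (1 lower), 5 at 5 CPM, 7 with the block and 1 with library size alone. The cause of these changes was not tested.

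Deviations of same-numbered libraries from their group means correlated at 0.0383, 0.0866 and −0.0428. Those of differently numbered libraries correlated at −0.139 to 0.122. With so few libraries these values cannot decide whether the numbers pair the samples, and the labels do not say. With the replicate block 414 genes were called, Igtp also passed (edgeR adjusted p = 0.0449), and the Tgtp pair had 0.78.

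Signs turned, with no call in any fit, for 5 named genes. With library size alone, 9930111J21Rik1 had −0.015, Rnf213 −0.012 and Irgq −0.13. When 1 library was left out, 9930111J21Rik1 ran from −0.029 (without WT replicate 1) to 0.297, Irgq from −0.13 to 0.283 (negative without MAVS KO replicate 1 or 2 or WT replicate 3), 9930111J21Rik2 from −0.187 to 0.10 (positive without MAVS KO replicate 2 or 3 or WT replicate 3) and Trim21 from −0.458 to 0.0020 (positive without WT replicate 1).

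A missed threshold does not show that a gene was unchanged. The MAVS KO and WT samples carry no batch label, so a batch cannot be told apart from genotype. Tgtp1 and Tgtp2 cannot be separated by reads from their shared stretches.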
